A study of Mus musculus with 13 samples.

Results

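Mgp, the gene of matrix Gla protein, was followed in 100523 mammary fibroblasts of 13 mouse libraries, and its level there ran from 259 to 7109 counts per 1000000 transcripts (CPM). It is 1 of the 32285 genes listed in each library. The gene was chosen by its own measured level, which was high in involution and in tumors, so the differences between those groups and the others are given as a description, with no test. Mgp (ENSMUSG00000030218) is a protein-coding gene on chromosome 6 of GRCm38, at 136872435 to 136875823 on the minus strand in GENCODE M21. That annotation gives it 2 transcripts and no overlapping gene, and its nearest neighbors, Art4 and Erp27, lie 14702 and 31488 bases away.

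Matrix Gla protein is a small secreted protein of the extracellular matrix, known for keeping cartilage and artery walls free of calcium deposits. It works after vitamin K-dependent carboxylation of glutamate residues, a step carried out by the enzyme Ggcx with vitamin K that Vkorc1 regenerates. It also binds bone morphogenetic proteins (BMPs), among them BMP2 and BMP4, and can hold them back from their receptors. In the mammary gland, fibroblasts lay down and remodel matrix, and involution is the phase after weaning in which the milk-producing epithelium is removed and the stroma is rebuilt.

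The 5 stage groups held 1 library each from wildtype C57BL/6 females: puberty at 4 weeks, adult virgins at 9 weeks, pregnancy at 14.5 days, lactation at 10 days and involution at 4 days. Placebo and MPA+E (medroxyprogesterone acetate with estradiol, given as pellets for a week) held 2 libraries each from wildtype C57BL/6 females of 9 weeks. All of these came from stromal cells sorted as negative for lineage markers and for CD24, with 2 females pooled per condition, or per replicate for the hormone groups. Hyperplasia and tumor held 2 libraries each from sorted GFP+ cells of raGFP-Wnt1 females (genotype Pdgfra-GFP KI/+ MMTV-Wnt1 T/+, C57BL/6 FVB mixed background). Both groups carried the same alleles. The MMTV promoter drives Wnt1 in mammary epithelium, and the Pdgfra reporter marks fibroblasts, so cells without the reporter were outside that sort. Libraries of the same number came from 1 mouse, aged 45 weeks for number 1 and 17 weeks for number 2.

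Fibroblasts were taken as barcodes with 500 to 7500 genes, at most 10% mitochondrial transcripts, at least 50 transcripts of Dcn, Lum and Col1a2 per 10000, and no transcript of Epcam, Pecam1, Rgs5, Sox10, Ptprc or Myog. A transcript here is a unique molecular identifier (UMI). The rule kept 100523 of 111246 barcodes within the limits on genes and mitochondrial transcripts, out of 120355 in all, from 4236 in tumor 2 to 11951 in the adult. The fibroblasts of a library held 47521842 to 102522735 UMIs, of which 19131 to 624037 were of Mgp. Pairs of libraries shared 3 to 34 barcodes, at most 0.503% of the smaller library. Among the kept cells the 5 endothelial markers summed to 1.01 to 16.1 CPM, the 5 immune markers to 1.19 to 16.1, the 5 pericyte markers to 19.5 to 53.7 and the 5 epithelial markers to 0.123 to 33.4, and the gate genes among them were at 0 by the rule. The 5 fibroblast markers summed to 20941 to 40482.

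The first comparison asked how much Mgp the fibroblasts held at each stage of gland development. Mgp had 502 CPM, taken over all fibroblast UMIs, in puberty. It had 259 in the adult and 594 in pregnancy. Lactation had 1225 and involution 4534. The adult library was the lowest of all 13 libraries, and involution lay above every other library but the tumors. The involution level was 17.5 times the adult level (95% counting interval 17.2 to 17.8), 9.03 times that of puberty, 7.63 times that of pregnancy and 3.70 times that of lactation (3.67 to 3.73). Lactation in turn had 2.06 times the level of pregnancy. With 1 library a stage there is no replicate check, and these intervals cover counting error only.

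A yardstick for the spread between libraries came from the placebo animals, which had the same strain, age and sort as the adult library. It is a rough one, since the placebo animals carried pellets and belonged to the hormone experiment. Their libraries were also deeper, with a median of 14158 and 12475 UMIs a fibroblast against 5805 in the adult. Placebo 1 and 2 had 1.97 and 2.40 times the adult level. Ratios of about that size were those of puberty over adult (1.94), pregnancy over adult (2.29) and lactation over pregnancy. They were no larger than this difference between unstimulated libraries of 1 age. Libraries of 1 group lay closer together, with ratios of library 1 over 2 of 0.82 for placebo, 0.93 for MPA+E, 1.08 for hyperplasia and 0.71 for tumor. Which of these spreads holds for the stages cannot be told from 1 library a stage. Lactation over adult (4.73) was above the yardstick. Like puberty and pregnancy over adult, it shares the adult library, the lowest of all, with the yardstick. The placebo libraries had 511 and 621 CPM against 1225 in lactation. The ratios of involution, which chose the gene, are not weighed against the yardstick.

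In the raGFP-Wnt1 mice Mgp was at 1092 and 1008 CPM in hyperplasia and at 5052 and 7109 in tumors. Both tumor libraries were above both hyperplasia libraries, a separation that 72.2% of 16302 genes showed in 1 direction or the other, and each tumor was above the hyperplastic gland of its own mouse, by 4.63 times in mouse 1 and 7.05 times in mouse 2. Over the fit of 6 libraries the log2 difference between tumor and hyperplasia was 2.52 ± 0.37 (SE, n = 2 libraries a group), and 628 of 16302 genes had a larger one. The log2 difference between hyperplasia and the normal glands (puberty and adult joined) was 1.50 ± 0.34 (SE), and 70.6% of genes had libraries that did not overlap between these groups, as Mgp did. The difference was 2.02 without the puberty library and 1.01 without the adult library. The placebo libraries, which were not in this fit, had 511 and 621 CPM, nearer to hyperplasia than puberty and adult (502 and 259). Strain, sort and age differ between the hyperplasia and normal groups and cannot be told apart from the lesion.

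By mean level the groups ran from tumor (6081 ± 1454 CPM, SD, n = 2) through involution (4534), lactation (1225), hyperplasia (1050 ± 59.3, n = 2), pregnancy (594), placebo (566 ± 77.5, n = 2), MPA+E (525 ± 28.2, n = 2) and puberty (502) to the adult (259). Involution lay below both tumors, and its gap to tumor 1 was smaller than the gap between the tumors. Between involution and lactation no library lay. Pregnancy, placebo, MPA+E and puberty could not be put in order, since the placebo libraries alone (511 and 621) spanned all but puberty and MPA+E 1, which lay just under them. Ranked among the genes of its own library, Mgp moved from place 530 in the adult to place 18 in involution, 14 in tumor 1 and 6 in tumor 2. These are 3′ UMI counts, which do not grow with transcript length.

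**Figure D1:**
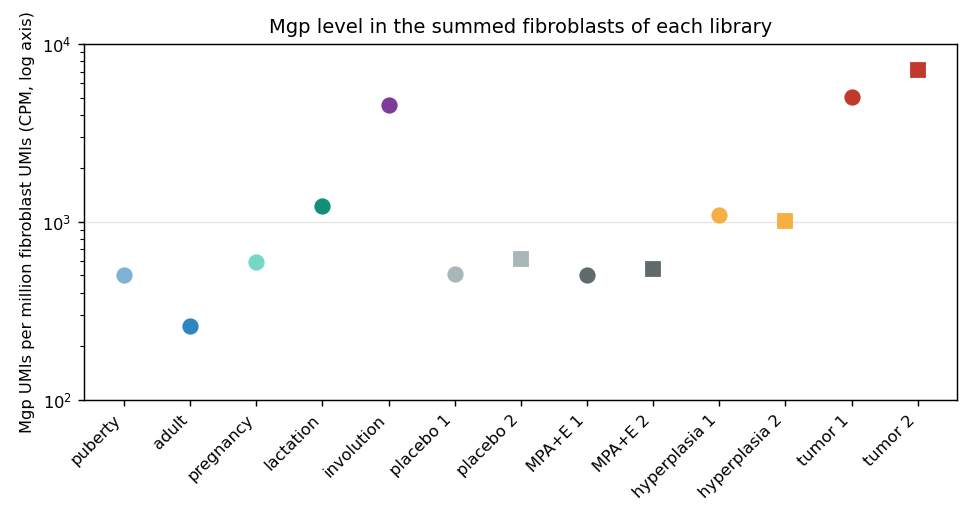
Mgp level in the summed fibroblasts of each of the 13 libraries, in CPM on a log axis. Circles stand for the only library or library 1 of a group and squares for library 2. Involution (4534) and the tumors (5052 and 7109) sit apart from the other 10 libraries, which lie between 259 and 1225.

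The next question was whether more cells held Mgp or whether each held more. Cells were thinned to 2000 UMIs each so that depth was equal, which left out 86 to 1310 cells a library. At that depth 17.1% of adult fibroblasts had an Mgp UMI (95% exact binomial interval 16.4 to 17.8), against 23.2% of those in puberty and 22.1% of those in pregnancy. The share was 34.2% in lactation and 57.0% in involution (56.0 to 58.0). Hyperplasia had 35.7% and 34.4%, and tumors had 61.1% and 80.7%. Without thinning the share was 24.7% in the adult and 72.0% in involution.

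The cells with a UMI also held more of it. Their mean count was 3.53 in the adult, 6.73 in lactation and 15.8 in involution, and it was 6.71 and 6.82 in hyperplasia and 17.0 and 22.3 in tumors. Between involution and adult the mean count over all thinned cells differed by 15.0 times, made of 3.34 times the share of cells with a UMI and 4.48 times the count per such cell. Between involution and lactation the factors were 1.67 and 2.35, and in mouse 1 and mouse 2 the tumor exceeded the hyperplastic gland by 1.71 and 2.35 times in share and by 2.53 and 3.28 times in count. These factors belong to the depth of 2000 UMIs, and at 1000 UMIs the share was 50.1% in involution and 12.7% in the adult.

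Mgp was unevenly spread between cells. In the adult the 10% of fibroblasts with the most Mgp held 88.3% of its UMIs, in involution 54.5% and in tumors 55.4% and 51.8%. For decorin (Dcn), a proteoglycan that nearly all of these fibroblasts express, the same share was 18.6% to 30.1% over the 13 libraries. Dcn is 1 of the genes that selected the fibroblasts, which by itself narrows its spread. The share held by the top 10% also depends on the mean count of Mgp, which was 0.60 in the adult and 9.01 in involution. A low mean by itself raises that share. With a Poisson spread at the adult mean, 45.2% of cells would have an Mgp UMI, against the 17.1% seen. The variance over the mean of the thinned counts was 9.79 to 52.3 for Mgp and 3.56 to 8.08 for Dcn. Even in involution the median cell held 1 Mgp UMI and the top 10% held 29 or more, and the highest single cell had 169. Within libraries the correlation of Mgp with a cell's total UMIs ran from -0.29 to 0.11 and with its mitochondrial share from -0.05 to 0.28, and the part of either in these distributions was not tested.

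**Figure D2:**
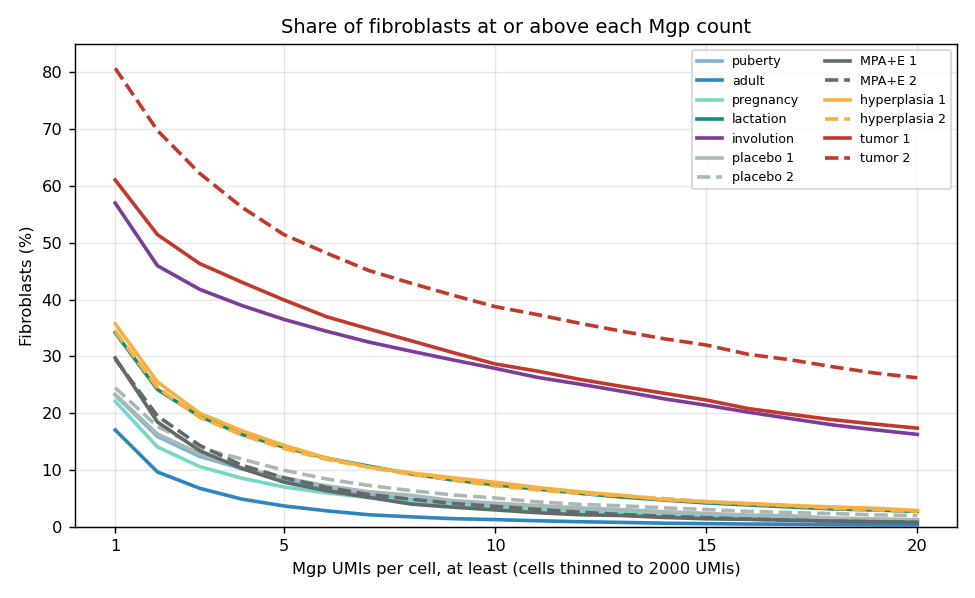
Share of fibroblasts, thinned to 2000 UMIs each, that held at least the number of Mgp UMIs on the x axis, with 1 line a library (dashed lines are library 2 of a group). At 5 UMIs the lines of the tumors (39.9% and 51.4%) and of involution (36.5%) lie above the others, which range from 3.67% to 14.3%.

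To see which fibroblasts held Mgp, cells were sorted by pairs of marker genes, with at least 2 UMIs of 1 pair and fewer than 2 of every other pair. These counts were not thinned, so the number of gates a cell met depends on its depth. The median was 3990 UMIs in pregnancy, 8312 in hyperplasia 2 and 20256 in tumor 2. Cells with Pi16 or Dpp4, markers of mesenchymal progenitors, had the lowest Mgp level of the gates with at least 20 cells in 13 of 13 libraries. Their level was 32.6 CPM in puberty, 33.9 in the adult and 58.4 in pregnancy. It was 137 in lactation and 418 in involution. The placebo libraries had 42.9 and 78.5 and the MPA+E libraries 29.8 and 48.7, and it was 130 and 225 in hyperplasia, and 238 and 1530 in tumors, the last from 81 cells. They were also lowest in 13 libraries with gates of at least 1 or at least 3 UMIs, but their level in tumor 2 was then 510 CPM (40 cells) and 386 CPM (90 cells).

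The highest level was in cells with Thbs4 or Cilp, which mark lobular-like fibroblasts, in 8 of 13 libraries, and in cells with Gdf10 or Clec11a, which mark adipogenesis-regulatory fibroblasts, in the other 5. Which of them was highest depended on the gate. With at least 1 UMI Thbs4/Cilp led in 5 libraries and Gdf10/Clec11a in 7, and with at least 3 UMIs each led in 6. Thbs4/Cilp cells had 875 CPM in the adult, 2162 in lactation and 8538 in involution. Fndc1, another lobular marker, had a negative correlation with Mgp in every library (given below). These levels therefore belong to the gate and not to lobular-like cells at large. Gdf10/Clec11a cells had 1806 in puberty, 662 in the adult, 2809 in lactation, 3242 in involution and 4314 and 4589 in hyperplasia. Their level in involution was only 1.15 times that in lactation, the smallest such ratio of the 7 groups of cells compared.

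Preadipocyte-like cells with Fabp4 or Cd36 were among the low ones in the virgin glands, with 88.5 CPM in puberty and 55.2 in the adult. They had 815 in pregnancy, 762 in lactation and 3170 in involution, which was 57.4 times the adult level and the largest ratio of any gate compared at 2 UMIs. The adult level moved with the gate, to 83.7 at 1 UMI and 52.8 at 3 UMIs, with 2954 and 3048 in involution. Cells with Crabp1 or Pla2g7, which mark ECM remodeling fibroblasts, had 348 in the adult, 518 in lactation and 3818 in involution. In the raGFP-Wnt1 mice the same cells had 532 and 534 in hyperplasia and 3445 and 8562 in tumors, the last from 66 cells. Myofibroblast-like cells with Acta2 or Lrrc15 had 2963 and 4924 in the tumors, where they numbered 80 and 163. Their levels in tumor 1 and 2 were 2539 and 5605 at 1 UMI and 3660 and 3212.5 at 3 UMIs, so the order of the tumors depended on the gate. All of these lay below the levels over all fibroblasts of the same tumors (5052 and 7109).

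Each of the 7 groups of cells with at least 20 members in both libraries, the cells in no gate included, had more Mgp in involution than in the adult (3.69 to 57.4 times) and than in lactation (1.15 to 7.37 times). With the involution levels weighted by the UMIs that each gate held in the adult, the involution to adult ratio was 14.9 in place of 17.5. With the weights of lactation the ratio was 3.21 in place of 3.70. Tumor 1 was the exception to a higher level in every gate. Its Fabp4/Cd36 cells had 593 CPM against 1234 in hyperplasia 1, and its Gdf10/Clec11a cells had 3970 against 4314. Between 26.0% (pregnancy) and 86.7% (tumor 2) of fibroblasts met 2 or more gates. They are in none of the levels by gate, and in the weighted ratios they count as a group of their own.

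**Figure D3:**
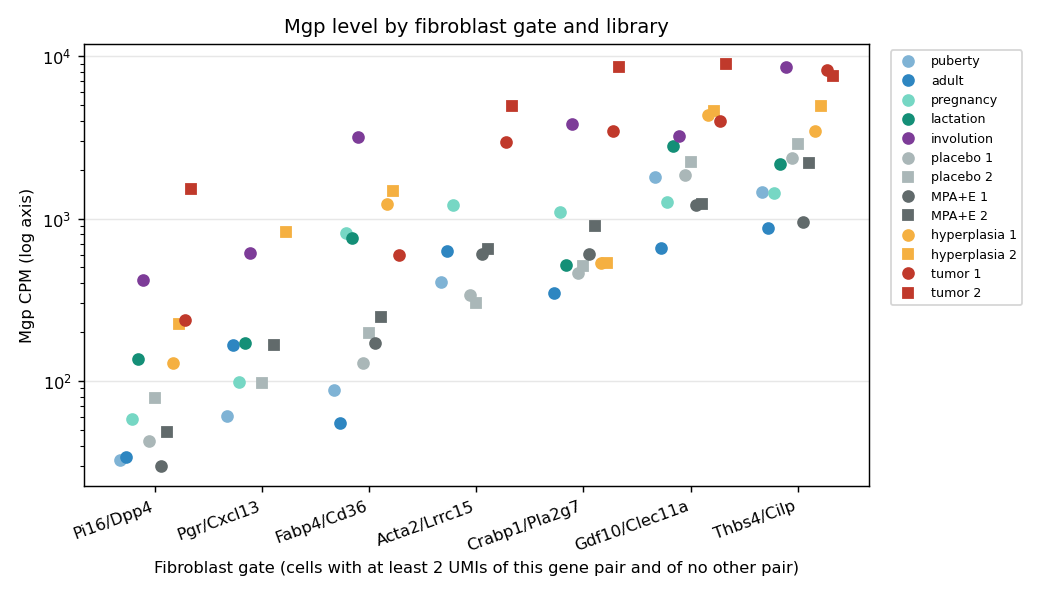
Mgp level (CPM, log axis) in fibroblasts that met 1 marker gate, by library, for gates with at least 20 cells. Circles are the only library or library 1 of a group and squares library 2. The Pi16/Dpp4 cells are lowest in all 13 libraries, and the Thbs4/Cilp and Gdf10/Clec11a cells reach 8538 in involution and 8934 in tumor 2.

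Outside the fibroblasts, cells were sorted by 2 or more UMIs of 1 excluded marker and a low level of Dcn, Lum and Col1a2. The 82 Myog cells of the puberty library, a myogenic group, had 12.1 CPM of Mgp, and 3.66% of them had a UMI (median depth 6008). In the fibroblasts of that library the share was 31.2% (median depth 6663), and the myogenic share serves here as the background from free RNA. Endothelial cells with Pecam1 had 0 of 65060 UMIs in puberty (29 cells, median depth 1447), with an exact Poisson upper bound of 56.7 CPM. By a floor of 3 cells, the share with a UMI at that low depth was up to 10.3%. Endothelial cells had 7.24 CPM in MPA+E 1, 35.2 in pregnancy, 63.5 in placebo 1, 80.5 in hyperplasia 1 and 130 in lactation. Endothelial cells had 267 CPM in involution, where 31.0% of 184 cells had a UMI at a median depth of 1732. The fibroblasts of that library had 72.0% at a median depth of 7293 and 57.0% when thinned to 2000 UMIs, and no myogenic cells were there to give a background from free RNA.

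Pericytes with Rgs5 ranged from 56.5 to 600 CPM over the 9 wildtype libraries. Epithelial cells with Epcam ranged from 75.9 to 469 CPM in the 5 wildtype libraries that had at least 20 of them, and had 1144 in hyperplasia 2 (61 cells) and 3587 in tumor 2 (101 cells, all with a UMI). In the Epcam cells of tumor 2 the Mgp level was 50.5% of that in the fibroblasts of the library, while the summed level of Dcn, Lum and Col1a2 was 2.13% of theirs. The low marker level is set in part by the selection, which required it, and is no check of the Mgp level. In hyperplasia 2 these figures were 113% and 5.64%, and in the 212 Epcam cells of pregnancy 79.0% and 4.17%. The Mgp figure was 94.0% in the adult, 78.9% in MPA+E 2, 39.5% in placebo 2 and 15.0% in MPA+E 1. Both sorts were set to leave out epithelial cells, and these are the few that passed. In pregnancy the Epcam cells had 469 CPM (72.2% with a UMI, median depth 4420), against 35.2 (7.41%, median depth 2591) in 27 endothelial cells. In MPA+E 1 they had 75.9 CPM (35.7%, median depth 13570), against 7.24 (2.67%, median depth 4222) in 75 endothelial cells. No group of at least 20 myogenic cells was there to give a background from free RNA. The part of free RNA or doublets in these values was not tested.

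Genes were then ranked by how they varied with Mgp from cell to cell in the same library, over 4707 genes with a UMI in at least 5% of thinned cells. The gene most like it was Bgn, which encodes the matrix proteoglycan biglycan, with a mean Pearson r of 0.50 over the 13 libraries (lowest 0.38 in MPA+E 1, highest 0.68 in involution). High values were also those of Igfbp7 (0.40), an IGF-binding protein of the matrix, the protease inhibitor gene Cst3 (0.36) and Mfap4 (0.36), a microfibril-associated gene. Smoc2 (0.32), Cilp (0.31), Cygb (0.29), Fmo2 (0.28) and Sparcl1 (0.27) were also among the first 10. These genes had r above 0 in 13 of 13 libraries. Only 26 genes had a mean r of 0.2 or more.

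At the other end were Fn1 (-0.34), which encodes fibronectin, Anxa3 (-0.32), Dpt (-0.32), a gene of the matrix protein dermatopontin, Ugdh (-0.31) and Efemp1 (-0.31). These 5 were below 0 in every library. Anxa3 is on the list of progenitor markers, and the sum of the 7 progenitor markers had a mean r of -0.35 with Mgp, above 0 in 1 library of 13. That library was tumor 2, where the sum had an r of 0.02. There Pi16 alone had a positive r (0.31, against -0.20 to -0.33 in the other 12 libraries), and the other 6 markers lay between -0.17 (Sema3c) and -0.06 (Ly6a). The 5 lobular markers differed among themselves. Fndc1 had a mean r of -0.25, below 0 in every library, and Cilp and Thbs4 (0.14) were above 0 in every library. Tgfbi (0.13) was above 0 in 11 libraries. In involution r was 0.47 for Cilp, 0.09 for Thbs4, -0.06 for Tgfbi and -0.50 for Fndc1. The sum of the lobular markers had a mean r of 0.10 (-0.08 to 0.38). The sum of the adipogenesis-regulatory markers Gdf10, Clec11a and Fmo2 had a mean r of 0.30, above 0 in 13 of 13. In involution that sum had an r of 0.20 (Fmo2 0.31, Clec11a 0.05, Gdf10 0.01). The sum of the ECM remodeling markers had a mean r of 0.22, above 0 in 12 of 13. In involution it was 0.64, with Mmp3 at 0.59, Lox at 0.56, Crabp1 at 0.15 and Pla2g7 at 0.11. The ECM remodeling markers differed among themselves, with a mean r of 0.18 for Mmp3, 0.16 for Lox and 0.05 for Crabp1 and Pla2g7. Crabp1 was above 0 in 9 libraries and Pla2g7 in 11. In hyperplasia 1 and 2 r was -0.14 and -0.13 for Crabp1 and -0.10 and -0.08 for Pla2g7. Cells of 1 library share their depth and their free RNA, and these values are descriptions.

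**Figure D4:**
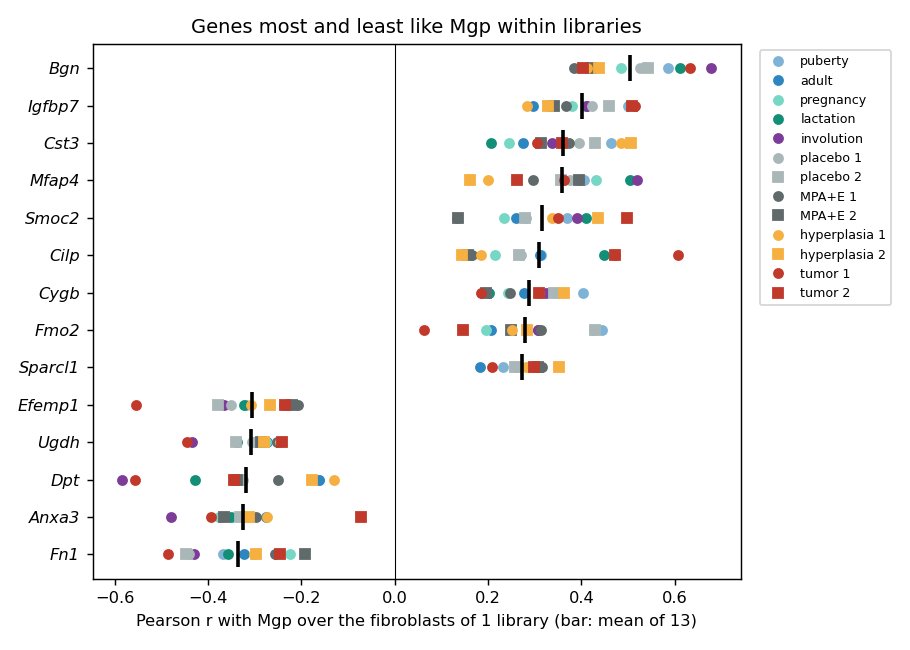
Pearson correlation with Mgp over the thinned fibroblasts of each library, for 9 of the 10 genes with the highest mean r and the 5 with the lowest. Each point is 1 library and the black bar is the mean of 13, from 0.50 for Bgn to -0.34 for Fn1, and no gene shown crosses 0.

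Across the 13 libraries the order of likeness again began with Bgn. On log2(CPM + 1), over 7865 genes, the highest Pearson r with Mgp were those of Bgn (0.97), Tmem98 (0.95), Lrrc32 (0.94), Lox (0.94), Atxn1 (0.93), Rab31 (0.93), Piezo1 (0.93), Gask1b (0.93), Plaat3 (0.92) and Svep1 (0.92). Involution and the tumors lie far from the rest, so r was also taken over the other 10 libraries, where it was 0.84 for Bgn, 0.88 for Lox, 0.84 for Rab31 and 0.36 for Piezo1. Over the 9 wildtype libraries it was 0.95 for Bgn and 0.91 for Lox. Some of these libraries share mice or animals of 1 group, and the points are not independent.

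Bgn had 517 CPM in the adult, 1437 in lactation, 2294 in involution, 986 and 851 in hyperplasia and 4177 and 4487 in tumors. Lox, the gene of lysyl oxidase, which cross-links collagen and elastin, had 124 in the adult, 471 in lactation, 717 in involution, 366 and 333 in hyperplasia and 914 and 731 in tumors. Both were lowest in the adult library, as Mgp was. The 100 genes most like Mgp across libraries (of 7865 ranked) and the 100 most like it within them (of 4707 ranked) had 15 in common, 15% of each list. Among these were Bgn, Lox, Ctsk, Ccn2 and the mitochondrial gene mt-Cytb. The overlap was not tested.

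**Figure D5:**
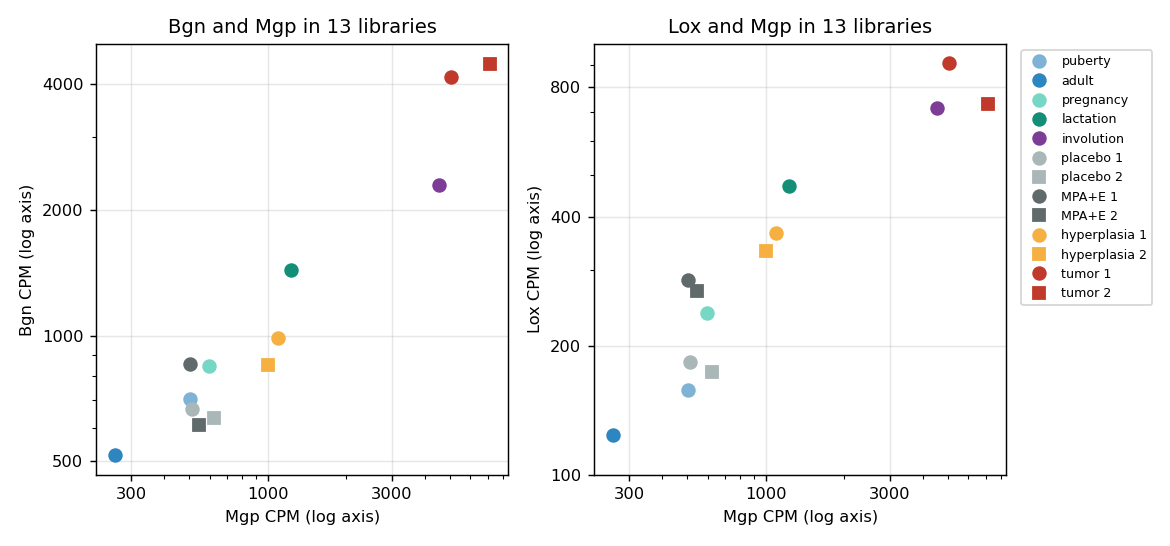
CPM of Bgn (left) and Lox (right) against CPM of Mgp in the summed fibroblasts of the 13 libraries, all on log axes, with 1 point a library. Both genes are lowest in the adult (517 and 124) and lie above the 10 other libraries in involution (2294 and 717) and in tumors (4177 and 4487, 914 and 731).

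The hormone experiment asked what a week of MPA and estradiol did to the adult stroma, and the choice of the gene did not use this contrast. The placebo libraries had 511 and 621 CPM of Mgp, and the MPA+E libraries 505 and 545. MPA+E 2 lay between the placebo libraries and MPA+E 1 just under them, so the groups overlapped by summed CPM. As a mean of per-cell CPM they did not, with 761 and 872 for placebo and 675 and 727 for MPA+E. Nor did the mean thinned counts, at 1.40 and 1.60 for placebo and 1.24 and 1.33 for MPA+E. Neither of these measures was tested, and the test that follows is on the summed counts. The log2 difference was -0.10 ± 0.18 (SE, n = 2 a group), with a 95% interval of -0.56 to 0.35 and an adjusted p of 0.831 by edgeR's quasi-likelihood test. No difference was detectable at this number of libraries. Without placebo 2 the log2 difference was 0.11.

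The spread of Mgp over cells is given as values beside this. The share of cells with an Mgp UMI was 23.3% and 24.5% with placebo, against 29.7% and 29.5% with MPA+E. The mean count of those cells was 6.01 and 6.53 with placebo, against 4.17 and 4.50 with MPA+E. The top 10% of cells held 83.6% and 82.5% of the UMIs with placebo and 74.3% in both MPA+E libraries. Since this share goes against the CPM, no order is read from it. By gate, Gdf10/Clec11a cells had 1864 and 2236 CPM with placebo, against 1211 and 1229 with the hormones. Crabp1/Pla2g7 cells had 460 and 514 with placebo, against 606 and 894 with the hormones. Of the 7 groups of cells with at least 20 members in all 4 libraries, the cells in no gate included, 2 were higher and 3 lower under MPA+E without overlap, and Pi16/Dpp4 and Fabp4/Cd36 cells overlapped. With gates of 1 UMI the Pi16/Dpp4 cells did not overlap (42.4 and 60.1 CPM with placebo, 62.7 and 62.5 with MPA+E), and with gates of 3 UMIs the Acta2/Lrrc15 cells did (444 and 493, 429 and 649). The Crabp1/Pla2g7, Gdf10/Clec11a and Thbs4/Cilp cells were apart in the same direction at 1, 2 and 3 UMIs. Over all fibroblasts 43.6% of 15642 genes did not overlap, and the differences within gates were not tested.

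Genes of the same protein family and of related processes were counted from lists of Gla proteins, the vitamin K cycle, BMP signaling, mineralization and matrix. A place on a list does not mean a joint function with Mgp. Under MPA+E the background was 4.33% of 15642 genes, 2.69% higher and 1.64% lower (edgeR, adjusted p under 0.05). Of 7 other Gla proteins tested, 3 rose and none fell. Gas6, a ligand of TAM receptors, went from 150 and 157 CPM in the placebo libraries to 529 and 374, a log2 change of 1.56 ± 0.17 (SE; adjusted p 0.0164). Prrg3, a transmembrane Gla protein, went from 22.7 and 21.6 CPM to 78.8 and 71.3 (1.77 ± 0.09). F7, of coagulation factor VII, had 0 UMIs in both placebo libraries and 29 and 48 under MPA+E, at least 20.4-fold higher against a floor of 3 counts over the group. None of the 7 genes of the vitamin K cycle passed the test.

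Among BMP genes, the ligands Bmp3 (-1.78) and Bmp6 (-1.01), the receptor Acvr2a (-1.06) and the antagonist Chrdl1 (-1.39) fell, and none of the 6 BMP targets passed the test. Bmp3 went from 20.9 and 19.3 CPM to 6.25 and 5.34. Of 11 mineralization regulators tested, only Alpl, the phosphatase that removes the mineralization inhibitor pyrophosphate, rose (2.26), from 1.97 and 2.02 CPM to 11.1 and 7.99. Of 12 matrix partners, Eln (0.73), Timp1 (0.70) and Lox (0.64) rose and Tnc (-1.53) fell. These changes are log2 values. Markers moved beside them: 3 of 5 ECM remodeling markers rose, 2 of 4 preadipocyte, 2 of 5 lobular and 2 of 4 pericyte markers fell, and of 7 progenitor markers 1 rose and 2 fell. Of 4 endothelial markers tested Vwf (2.21) rose. Over all genes 678 were called, and fits without placebo 1 or placebo 2 called 22 and 42. Of the 12 list calls 0 held without placebo 1 and 1 without placebo 2.

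In tumors against hyperplasia the background was 29.3% of 16302 genes, 15.4% higher and 13.9% lower (limma-voom, adjusted p under 0.05), and since this contrast helped to choose Mgp, nothing is read from the counts against it. Of the 6 Gla proteins tested Gas6 (log2 1.55) and Prrg4 (2.01) rose, the latter from 8 UMIs in each hyperplasia library to 51 and 49. Of the 7 vitamin K cycle genes 4 rose: Vkorc1 (0.74), Vkorc1l1 (0.70), Calu (0.63), which encodes the chaperone calumenin, and the carboxylase gene Ggcx (0.55). The median over the list was 0.55, against -0.01 over all genes. Vkorc1 was at 165 and 180 CPM in hyperplasia and 264 and 310 in tumors.

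Of 8 BMP ligands tested 3 were lower in tumors and 1 higher, with Bmp2 and Bmp4 among the lower ones. Bmp4 was at 60.2 and 64.0 CPM in hyperplasia and 7.88 and 2.46 in tumors (log2 -3.79 ± 0.47, SE), and Bmp2 at 50.3 and 54.6 against 10.5 and 3.99 (-3.00 ± 0.42). Gdf10 (-1.59) fell as well, and Gdf6 (2.66) rose. Of the receptors Acvr2b (-1.87) and Acvr2a (-0.70) fell, and Bmpr1b rose from 3 UMIs in each hyperplasia library to 79 and 342. Of the 9 antagonists tested Grem1 (3.27), Fstl1 (0.93) and Bmper (0.81) rose. Of the 6 targets Smad9 (-1.66), Id1 (-1.31) and Id3 (-0.71) fell and none rose.

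Of 11 mineralization regulators tested, 7 rose and 1 fell, with a median log2 change of 1.41. Spp1, of osteopontin, was at 3.31 and 2.50 CPM in hyperplasia and 64.2 and 670 in tumors (6.19 ± 1.24, SE), the decoy receptor gene Tnfrsf11b rose by 3.25 and the phosphate transporter gene Slc20a1 by 2.57. Ahsg rose as well (4.09), from 4 and 1 UMIs to 65 and 60. Alpl fell by 2.85. Of 12 matrix partners Timp1 (4.80), Loxl3 (1.80), Postn (1.62), Lox (1.23) and Loxl1 (0.96) rose and Vtn (-3.26), of vitronectin, fell. With either hyperplasia library left out, 5 of the 33 list calls of this contrast held. With the mouse as a block and the normal libraries also left out of the fit, 31 held. Ggcx (adjusted p 0.0608, limma-voom) and Postn (0.0774) did not. Of the 33 list calls 30 held with edgeR in place of limma-voom, and 29 with all barcodes within the limits kept.

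In the tumors markers of fibroblast states and other cells moved too. All 4 myofibroblast markers passed the test as higher, with a summed level of 67.2 to 82.1 CPM in hyperplasia and 2214 and 3390 in tumors. All 4 cycling markers were higher as well, at 3.73 and 0.828 CPM in hyperplasia and 70.5 and 140 in tumors. The progenitor markers, whose gate had the least Mgp, summed to 3410 and 4569 in hyperplasia and to 3872 and 961 in tumors, and the list had no call among 7. All 4 preadipocyte markers fell (median log2 -2.01), as did 2 of 3 adipogenesis-regulatory markers, Gdf10 and Fmo2 (-2.88). The other, Clec11a, was at 49.98 and 37.72 CPM in hyperplasia and 77.05 and 116.7 in tumors, which did not pass the test. Of 4 immune markers tested C1qa (2.17) and Lyz2 (3.55) rose and Cd68 (-1.63) fell, and the endothelial marker Flt1 (2.27) and the pericyte marker Mcam (3.03) rose. Of the ECM remodeling markers Stra6 and Lox rose and Pla2g7 fell, of the lobular markers Cilp rose and Tgfbi fell, and of the fibroblast markers Col1a1 rose and Dcn and Pdgfra fell. The part of any of these in the Mgp difference was not tested. Markers of cartilage cells, a known source of Mgp, summed to 22.7 and 10.9 CPM in hyperplasia and 50.1 and 50.8 in tumors, with 2 of 3 tested markers higher.

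In hyperplasia against the normal glands the background was 7.70% of genes higher and 6.29% lower. BMP signaling genes were among those that rose. Bmp4 was at 5.23 and 3.98 CPM in puberty and adult and at 60.2 and 64.0 in hyperplasia (log2 3.76 ± 0.51, SE; adjusted p 0.0137, limma-voom). Of the 6 BMP targets Id1 (2.28), Smad6 (1.62), Id3 (1.10) and Smad7 (0.80) rose, with a median of 1.32 against -0.01 over all genes. Of 8 receptors Acvr2a (0.98), Bmpr2 (0.74) and Acvr1 (0.72) rose and Eng (-1.15) fell. The placebo libraries, which were not in this fit, had 50.7 and 36.9 CPM of Acvr2a against 50.7 and 44.1 in hyperplasia. Bmpr2 had 155 and 145 against 140 and 130, Acvr1 38.4 and 31.6 against 35.4 and 31.9, and Smad7 99.6 and 168 against 174 and 153. Bmp4 (20.6 and 26.5), Id1 (48.3 and 58.3) and Id3 (487 and 736) were lower with placebo than in both hyperplasia libraries, and Eng was higher. None of the 9 antagonists tested and none of the 7 vitamin K cycle genes passed the test. Of the other lists, Pros1, Enpp1, Runx2, Mmp3 and Lox rose, and Fam20c, Vtn and Loxl1 fell. With placebo Runx2 had 27.7 and 18.3 CPM against 28.7 and 27.4 in hyperplasia, and Vtn 19.2 and 23.3 against 25.4 and 19.0. Pros1, Mmp3 and Lox were higher in both hyperplasia libraries than in both placebo libraries, and Fam20c and Loxl1 were lower. With puberty, adult or either hyperplasia library left out, at most 1 of the 17 list calls of this contrast held. Markers of fibroblast states and other cells differed as well. Of 5 ECM remodeling markers 4 rose (median 1.33), led by Pla2g7 (4.83) and Crabp1 (4.74), and of 4 myofibroblast markers Acta2 (-4.46) and Tagln (-2.75) fell. Cilp, Myh11, S100b and Pax7, of the lobular, smooth muscle, Schwann and myogenic lists, fell, and Pparg and the endothelial Vwf rose. Their part in the result was not tested.

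In involution, where 1 library a group allows no test, genes with a mean of 10 CPM or more over the stages were counted at 2-fold. Against lactation 1.38% of 7814 genes were higher and 0.870% lower by that measure, and Mgp, with a log2 difference of 1.89, stood at place 21 from the top. The genes above it included the chemokines Cxcl9 and Cxcl10 and the interferon-induced Gbp6, Igtp and Iigp1 (named after their values were seen). None of the listed Gla, vitamin K, BMP or mineralization genes that passed this limit reached 2-fold against lactation (4 of 15 Gla and 4 of 16 mineralization genes passed it). The 4 BMP targets that passed it had a median log2 difference of 0.74 against -0.12 over all genes. Id2, at 102 against 51.2 CPM, and Id1, at 30.3 against 15.6, came near 2-fold. Id3, at 519 against 352, and Smad7, at 102 against 84.9, differed less. Against the adult the median of these targets was 0.06. Of 11 matrix partners Mmp3 (2205 against 991 CPM) and Timp1 (105 against 41.8) reached 2-fold against lactation. Of the markers, Mmp3 was the 1 higher of 3 ECM remodeling markers that passed the limit, and Cd55 (230 against 522 CPM) the 1 lower of 7 progenitor markers.

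Against the adult, 3.76% of genes were at least 2-fold higher and 1.97% lower, and Mgp stood at place 3 with a log2 difference of 4.12. Of the Gla, BMP, mineralization and matrix genes that passed the limit, Lox (2.52), Bmp4 (2.36), Mmp3 (2.04), Runx2 (1.26), Pros1 (1.20) and Postn (1.06) were higher and none was lower. Bmp4 had 20.6 and 26.5 CPM in the placebo libraries against 24.5 in involution, and Runx2 27.7 and 18.3 against 27.8. Postn had 2196 and 1918 with placebo against 2411. Larger gaps to placebo were those of Lox (183 and 174 against 717), Mmp3 (752 and 628 against 2205) and Pros1 (142 and 124 against 205). Among markers, 3 of 3 ECM remodeling markers that passed the limit were higher than in the adult, with a sum over the list of 699.7 CPM in the adult, 1558 in lactation and 3024 in involution. Most of the sum in involution was Mmp3 (2205) and Lox (717). Crabp1 went from 19.8 in the adult to 87.8, and Pla2g7, under the limit, from 13.2 to 7.44. Cells in the Crabp1/Pla2g7 gate alone numbered 354 of 11951 in the adult and 94 of 9863 in involution, so the sum is no measure of such cells. Of 7 progenitor markers Anxa3 and Ly6a were lower, and that list summed to 7887, 5083 and 4165. The myofibroblast markers Acta2 and Tagln, the lobular marker Tgfbi and the smooth muscle marker Myh11 were lower, and Lrrc15, Fmo2, Pparg, Lum and Col1a1 were higher. Fmo2 (75.7 CPM), Pparg (23.9) and Ly6a (1612) in involution were near their placebo levels (73.9 and 78.7, 23.2 and 19.8, 1730 and 1549). Anxa3, Acta2, Tagln, Tgfbi, Lrrc15, Lum and Col1a1 differed from both placebo libraries in the same direction as from the adult. The part of these markers in the Mgp difference was not tested. Bmp4 was at 3.98 CPM in the adult, 32.9 in lactation and 24.5 in involution, and Bmp2 at 48.6, 65.8 and 69.4. None of the 5 vitamin K cycle genes that passed the limit reached 2-fold, with Ggcx at 24.3 and 20.1 and Vkorc1 at 212 and 206 in adult and involution. Of the osteocalcin genes, the Gla proteins of bone, Bglap, Bglap2 and Bglap3 were near 0 in every library, with at most 0.144 CPM, that of Bglap in puberty.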

How the data were processed

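Stromal cells of 13 libraries were profiled by droplet 3′ single-cell RNA sequencing (10x Chromium). The authors deposited filtered matrices of raw UMI counts per gene and barcode, made with Cell Ranger 6.1.2 against mm10 according to the submitters' processing notes. These counts carry no normalization. Gene position is from GENCODE M21.

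Fibroblast barcodes were selected as stated in the results, and no doublet caller was run. Counts were summed over the fibroblasts of each library and divided by their total (CPM). Intervals are 95% exact Poisson or binomial intervals, which cover counting error only. Cells were thinned to 2000 UMIs with a fixed seed for shares and correlations. The hormone groups were compared with edgeR 4.0.16 (quasi-likelihood, TMM) and hyperplasia, tumor and normal glands with limma 3.58.1 (voom, 6 libraries in 1 fit), each across all genes that passed the filter on low counts, with Benjamini-Hochberg adjustment. Fits were tested on simulated data. Where libraries are not stated to be separate cultures or animals, p-values measure the spread between these libraries. Hyperplasia and tumor libraries of the same number came from 1 mouse according to the labels, and their deviations from the group means had a correlation of 0.0946 over 16001 genes.

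The gene, the marker gates and the gene lists were chosen with earlier results of these data known. The genes named are the list members past the test (2-fold where a group has 1 library), the 10 genes most like Mgp within and across libraries and the 5 least like it within libraries, except for 1 gene that is not reported here. Marker genes past the same thresholds and genes named as examples of an overlap or a ranking (such as Ctsk, Ccn2 and the chemokine and interferon-induced genes) were chosen after their values were seen. Alternatives covered other scaling, tools, filters, thinning, gates, fibroblast limits and leaving out each library of a fit.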

Additional observations from a re-analysis of the deposited data

How the results depend on the processing

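Mgp was above the adult and lactation levels in involution under every alternative run. Its involution to adult ratio, 17.5, was 16.7 with a fibroblast limit of 100 per 10000 UMIs, 17.2 with all barcodes within the limits and 14.4 as a mean of per-cell CPM. The ratio to lactation, 3.70, was 3.65 with all barcodes, 3.89 as a mean of per-cell CPM and 3.98 with TMM-scaled totals. With the gate mix of the other library, an alternative chosen after seeing the data, these ratios were 14.9 and 3.21. The share of fibroblasts with an Mgp UMI in involution and adult was 50.1% and 12.7% at 1000 UMIs, 46.0% and 9.65% for at least 2 UMIs, and 72.0% and 24.7% without thinning. No library could be left out at stages with 1 library.

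Under MPA+E the log2 difference of Mgp ranged from -0.30 to 0.11 with 1 library left out and turned to 0.11 without placebo 2. Its adjusted p over the alternatives was 0.612 to 0.990. The 678 genes called became 1358 with DESeq2, and 22 (without placebo 1) to 900 (without MPA+E 1) with 1 library left out. With the replicate number as a block 2451 genes were called and Mgp was at -0.09. These libraries share only a number (correlation of deviations 0.396, 2 pairs).

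Mgp in tumor against hyperplasia ranged from 2.30 to 2.74 with 1 library left out. It was 2.51 with the mouse as replicate block and only the hyperplasia and tumor libraries in the fit. That fit called 4898 of 16001 genes. The 4777 genes called ranged from 242 (without hyperplasia 1) to 7120. In hyperplasia against normal Mgp ranged from 1.01 to 2.02, and the 2280 genes called from 1 (without hyperplasia 2) to 4810. The cause of these shifts was not tested. Of the named list genes, 516 results under alternatives kept their call and 199 lost it, and none turned direction.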
